A study of Mus musculus with 17 samples.

Results

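A set of WT1 binding regions was seen in glomeruli of vehicle-treated mice and in none of the other 4 deposited peak lists of the series. The peaks of all 5 lists, merged where they overlapped or touched, gave 41766 regions, and 28265 of these had a peak in vehicle (PBS) glomeruli. Of the 28265, 4610 (16.3%, 95% Wilson interval 15.9 to 16.7) had a peak in no other list and are the members described here. Each member consisted of 1 peak. Presence and absence of called peaks chose the members, so their signal in vehicle glomeruli is given as a description without a test.

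WT1 is a zinc-finger transcription factor that podocytes, the epithelial cells around the glomerular capillaries, need to keep their identity and filtration structures. It binds promoters and distal enhancers, and one gene can have many WT1 sites around it. Isolated glomeruli also hold endothelial, mesangial and parietal epithelial cells, so chromatin of whole glomeruli is a mixture in which a region bound in fewer cells and a region bound less in each cell cannot be told apart.

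WT1 was measured by chromatin immunoprecipitation and sequencing (ChIP-seq) with the antibody sc-192 in mice labelled wildtype and aged 7 to 8 weeks. Isolated glomeruli of BALB/cJ mice gave 4 libraries after PBS and 4 after adriamycin (ADR), a drug toxic to podocytes, with no day given for either group. Purified podocytes of mTmG-Nphs2cre mice, a fluorescent reporter strain in which the podocin gene promoter drives the Cre recombinase, gave 3 libraries after PBS, 2 at day 9 and 2 at day 14 after ADR. The remaining 2 of the 17 samples were glomerular inputs. The members are thus missing at once from injured glomeruli of the same strain and from podocytes of another strain and preparation, and these differences cannot be told apart.

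The authors gave 1 peak list per group, and the lists differ in length. Vehicle glomeruli had 29082 peaks and injured glomeruli 16634. Podocytes had 23402 without injury, 31949 at day 9 and 6694 at day 14. The lists also differ in their weakest calls, with a lowest −log10 q (the caller's adjusted significance) from 1.31 in ADR glomeruli to 2.25 at day 14. The narrowest peak was 177 bp in ADR glomeruli and 182 bp in PBS glomeruli. In podocytes it was 267 bp after PBS, 251 bp at day 9 and 256 bp at day 14. No value per library was used, the read depth behind the lists is unknown, and no difference between groups has a replicate check. Intervals are 95% Wilson intervals and cover the counting of regions alone. A missing peak means that no peak was called at that place, which does not show that WT1 was absent from it.

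The members were mostly weak sites. Fold enrichment, the authors' ratio of immunoprecipitated signal to background at a peak, ran from 2.51 through a median of 5.47 to 23.8 in the members. The 24472 other PBS glomerular peaks had a median of 8.20 and reached 34.8. A member's median place in the PBS glomerular list was the 24.8th percentile, against the 56.3rd percentile for the other peaks. Of the members, 815 (17.7%, 16.6 to 18.8) had a −log10 q, the caller's adjusted significance, of at least 10, compared with 55.9% of all PBS glomerular peaks. An enrichment of at least 10-fold was reached by 206 members (4.47%, 3.91 to 5.10), compared with 32.2% of all PBS glomerular peaks. These shares come from the calls that chose the members, and nothing further is read from them.

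The signal in PBS glomeruli rose in steps with the number of other lists that had a peak in the region. A region with more than 1 PBS glomerular peak was taken at its highest peak, whereas each member had 1 peak. Median enrichment was 5.47-fold in the members, 5.95-fold in 4643 regions with a peak in 1 other list, 7.40-fold in 7122 regions with 2, 9.02-fold in 7224 regions with 3 and 15.7-fold in 4666 regions with all 4. The members therefore sat next to the regions of 1 other list and far below the regions of all lists. The interquartile range of the members, 4.68 to 6.59, overlapped that of the regions with 1 other list, 4.91 to 7.46, and lay below that of the regions in all lists, 11.3 to 21.0.

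**Figure D1:**
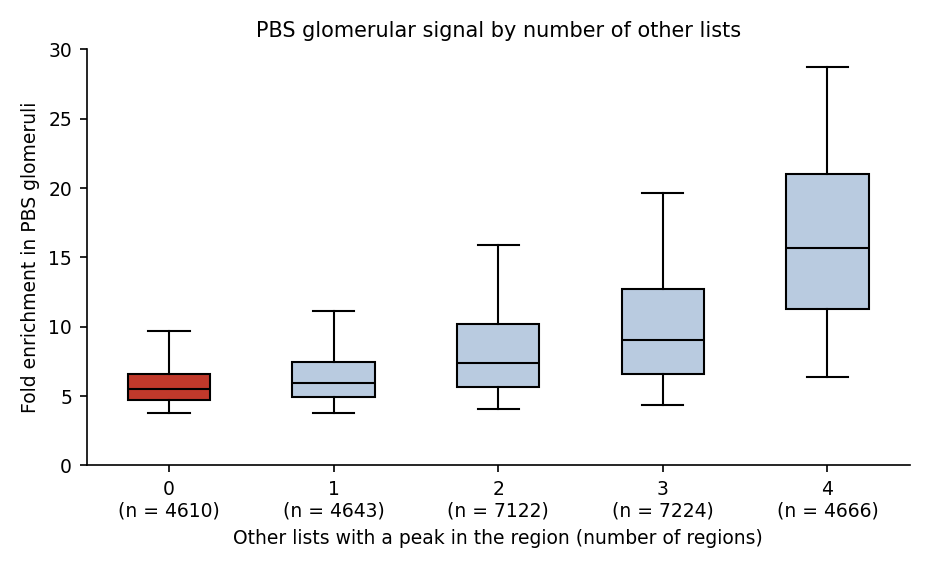
Fold enrichment in PBS glomeruli (vertical axis) of the 28265 PBS glomerular regions, grouped by how many of the other 4 lists had a peak in the region (horizontal axis). Boxes give quartiles and median and whiskers the 5th and 95th percentiles over regions, and the members (red, 0 other lists) have a median of 5.47 against 15.7 in regions of all lists.

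Weak peaks were not as a rule confined to vehicle glomeruli. In the weakest decile of the PBS glomerular list by enrichment, 912 of 2909 peaks (31.4%, 29.7 to 33.1) were members, and in decile 2 the share was 33.9% (32.2 to 35.7). It was 17.7% in decile 5 and 4.06% in decile 8. In the strongest decile 16 of 2909 peaks (0.550%, 0.339 to 0.892) were members. Ranked by −log10 q, the shares went from 39.3% in decile 1 to 0.413% in decile 10. Among the 1000 peaks with the highest enrichment, 2 were members.

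**Figure D2:**
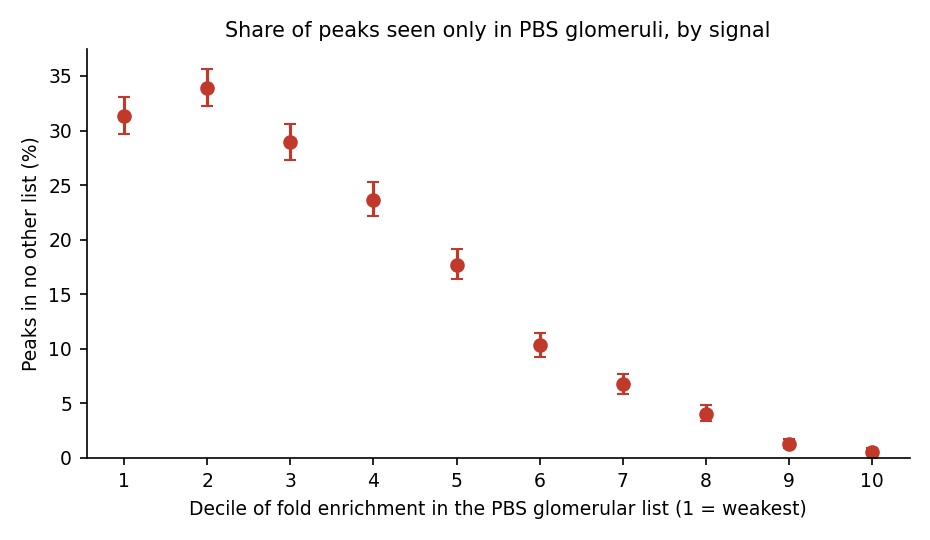
Percentage of PBS glomerular peaks that lie in no other list (vertical axis) in each decile of fold enrichment within the PBS glomerular list (horizontal axis, 1 weakest, 10 strongest). Points are shares of about 2908 peaks with 95% Wilson intervals, and the share goes from 31.4% in decile 1 to 0.550% in decile 10.

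The members were also narrow. Their median width was 240 bp (quartiles 205 and 286), against 360 bp (276 and 490) for the other PBS glomerular peaks. The narrowest width in the list was 182 bp, and 150 of the 294 peaks with that width were members. Widths under 300 bp were found in 79.7% of members and in 32.4% of the other peaks. Width and signal come from the same call, so that the narrow width is no second line of evidence.

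At its edge the rule turned on few bases. The 5 members closest to a peak of another list lay 2 to 15 bp from it and had enrichments of 3.76 to 5.59. The closest, on chromosome 10 at 122115708 to 122115910 in the mm9 genome (4.54-fold), ended 2 bp from a PBS podocyte peak. On the other side of the rule, the 5 smallest overlaps among regions of 1 PBS glomerular peak and 1 other peak were 13 to 26 bp, with PBS glomerular enrichments of 3.42 to 5.30. The smallest was on chromosome 15 at 78893298 to 78893583 (4.27-fold, overlap 13 bp with a PBS podocyte peak). Such borderline cases were few, with 27 members at most 50 bp from another list and 14 of these simple overlaps of at most 50 bp.

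Most members lay in the neighbourhood of WT1 sites of other lists. A peak of another list was found within 1 kb of 637 members (13.8%, 12.9 to 14.8), within 10 kb of 2499 (54.2%, 52.8 to 55.6) and within 100 kb of 4351 (94.4%, 93.7 to 95). The shared PBS glomerular regions were in somewhat denser surroundings. Measured to the nearest other merged region with a peak of another list, the median distance was 8348 bp for members and 5352 bp for the 23655 shared regions, and 54.2% and 63.1% (62.5 to 63.8) had such a region within 10 kb. No test was made of this difference, since neighbouring regions are not independent.

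**Figure D3:**
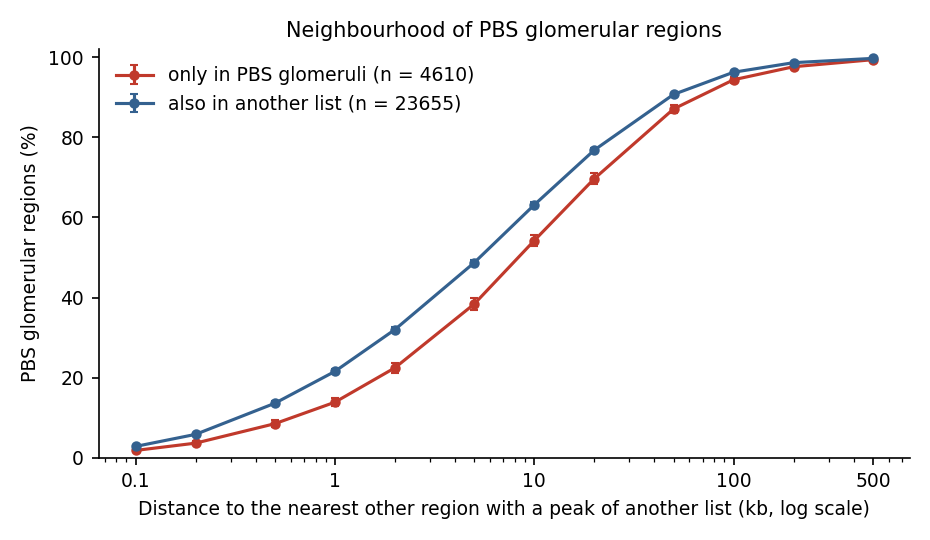
Cumulative percentage of PBS glomerular regions (vertical axis) that have another region with a peak of another list within the distance on the horizontal axis (kb, log scale), for the 4610 members (red) and the 23655 shared regions (blue). Points carry 95% Wilson intervals, and at 10 kb the members stand at 54.2% and the shared regions at 63.1%.

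Of the 637 members with a peak of another list within 1 kb, 457 (71.7%, 68.1 to 75.1) also had a shared PBS glomerular peak within 1 kb. Of all 37156 regions with a peak of another list, 23655 (63.7%) held a PBS glomerular peak, and the 2 shares count different things and were not tested against each other. Across all members, 2136 (46.3%, 44.9 to 47.8) had a shared PBS glomerular peak within 10 kb. The signal of members varied little with this distance. Median enrichment was 5.25-fold up to 1 kb from a region of another list, 5.44-fold from 1 to 10 kb, 5.48-fold from 10 to 100 kb and 5.76-fold beyond 100 kb, where 259 members lay. In the shared regions, each taken at its highest PBS glomerular peak, the medians over the same distances were 8.58, 8.66, 7.96 and 7.70. The quartiles of members were 4.47 and 6.14 up to 1 kb and 4.84 and 6.75 beyond 100 kb. Those of the shared regions were 5.85 and 13.1 up to 1 kb and 5.77 and 11.1 beyond 100 kb. The ranges overlap widely within each set, and no trend is read from the medians.

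The neighbouring peak came from podocytes more often than from injured glomeruli. The nearest peak of another list belonged to day 9 podocytes in 2378 members (51.6%) and to PBS podocytes in 1620 (35.1%). ADR glomeruli supplied it in 594 (12.9%) and day 14 podocytes in 5. Lists tied in 13 members. An ADR glomerular peak lay within 10 kb of 32.8% of members, a PBS podocyte peak within 10 kb of 43.7%, a day 9 peak within 10 kb of 48.8% and a day 14 peak within 10 kb of 17.7%. The shares by nearest list and those within 10 kb both follow the order of the list lengths, and the ADR glomerular list is the second shortest. Nothing further is read from them.

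A minority of members reached high signal. The 20 strongest had enrichments of 16.8 to 23.8 and −log10 q values of 36.3 to 64.8, all above the 89th percentile of the PBS glomerular list, and were 316 to 850 bp wide. They lay on 8 chromosomes, with 6 on chromosome 2 and 4 on chromosome 1. Peaks of other lists were 2734 bp to 829 kb away, with a median of 18914 bp. Of the 20, 9 had a peak of another list within 10 kb, and 5 had an ADR glomerular peak that near. Over all members these shares were 54.2% and 32.8%, and with 20 regions no difference is read from the counts. Among all 206 members of at least 10-fold enrichment, 93 (45.1%, 38.5 to 52) had a peak of another list within 10 kb, and 57 (27.7%, 22.0 to 34.1) had another member within 10 kb, compared with 17.1% of all members.

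The strongest member was at 135219678 to 135220330 on chromosome 1, with 23.8-fold enrichment and a −log10 q of 64.8. It ranked 843 of the 29082 PBS glomerular peaks by enrichment. The nearest ADR glomerular peak was 39.7 kb away. The runner-up, at 76408057 to 76408484 on chromosome 2, was enriched 23.4-fold and had a day 9 podocyte peak at 2734 bp and a PBS podocyte peak at 5060 bp. The third, at 12757271 to 12757678 on chromosome 6, was enriched 22.2-fold and lay 56.6 kb from the nearest peak of another list. By −log10 q the order was led by the same member on chromosome 1, followed by 135240863 to 135241435 on the same chromosome (−log10 q 62.3, 17.4-fold).

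Some other strong members had peaks of the other 4 lists in their neighbourhood. The member at 5767118 to 5767639 on chromosome 11 (19.7-fold) had a peak of each of the other 4 lists 3776 to 3936 bp away. That at 156397198 to 156397556 on chromosome 2 (16.8-fold) had all 4 at 7504 to 7676 bp. At 95817634 to 95818051 on chromosome 3 (20.8-fold) the other lists came within 9638 to 13799 bp. At these places the other 4 lists thus had called peaks in the neighbourhood and no called peak at the member itself. A looser setting was seen elsewhere. On chromosome 6 the member at 141271992 to 141272394, enriched 18.8-fold, had ADR glomerular, PBS podocyte and day 9 peaks at 9400 to 9495 bp and no day 14 peak closer than 52670 bp. On chromosome 11 the member at 110124349 to 110124664, the narrowest of the 20 at 316 bp and enriched 18.0-fold, had ADR glomerular and PBS podocyte peaks at 5222 and 5139 bp, while the nearest day 9 peak was 71353 bp off. Farther from all of them, the member at 103218946 to 103219622 on chromosome 2 (20.2-fold) had the other 4 lists at 81864 to 83922 bp and another member at 2306 bp.

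Members followed one another along the chromosome in runs, here meaning neighbouring members with no region of any other kind between them. Of the 4610 members, 3306 had no member as the next region and 1304 (28.3%) stood in 587 runs of at least 2. There were 493 runs of 2, 71 of 3, 19 of 4 and 4 of at least 5. Members were 4610 of all 41766 regions, so some would be neighbours from the size of the set alone. Whether runs were more frequent than that was not tested. Runs had no limit on distance, and a run of 4 on chromosome 6 spanned 1358025 bp. No clustering of members is read from these counts. The other sets of regions seen in 1 list alone had runs as well. In runs of at least 2 stood 16.3% of the 1409 regions seen only in ADR glomeruli, 12.6% of the 1631 seen only in PBS podocytes and 40.1% of the 6738 seen only at day 9. The longest runs of these sets were 4, 4 and 9. Of the 12 regions seen only at day 14, 33.3% stood in runs, the longest of 4. The sets differ in size, and no order is read from these shares.

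The longest run of members held 11 regions over 174 kb on chromosome 1, at 127839081 to 128013238. Enrichment there was 10.8, 7.24, 16.1, 5.05, 21.0, 6.70, 7.65, 6.46, 18.9, 4.61 and 9.02 from left to right. Thus 4 of the 11 passed 10-fold, and the highest, at 127869657 to 127870348, ranked 1523 in the list. Within 50 kb to either side of the run, ADR glomeruli, PBS podocytes and day 14 podocytes had 0 peaks. The single peak of another list there was a day 9 podocyte peak of 5.28-fold, at a place where PBS glomeruli had a 26.1-fold peak (127819746 to 127820214). By the rule this stronger site is no member, although day 9 podocytes alone among the other lists had a peak there.

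On chromosome 7, a run of 7 members at 55181447 to 55250677 lay in a stretch where the other 4 lists had no peak within 50 kb. The enrichments were 11, 8.03, 6.23, 19.2, 21.1, 8.49 and 5.85. The pair of highest, at 55214144 to 55214554 and 55215700 to 55216143, stood 1145 bp apart. The nearest peak of any other list was in PBS podocytes, 828 kb from the stronger of the pair, which made these the most isolated of the 20 strongest members.

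The strongest member belonged to a run of 6 on chromosome 1, at 135161502 to 135241435, with enrichments of 6.83, 3.86, 8.06, 23.8, 6.46 and 17.4. The pair of strong members stood among 4 of at most 8.06-fold. Within 50 kb of it PBS glomeruli had 19 peaks, 13 of them members, whereas ADR glomeruli had 2 peaks, PBS podocytes 4, day 9 podocytes 4 and day 14 podocytes 0. One shared site there, at 135119036 to 135119731, was 18.4-fold enriched in PBS glomeruli and 8.92-fold in the ADR list. Fold values of separate lists are not on a common scale.

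A compact run of 4 strong members lay on chromosome 17 at 87795289 to 87802864, within 7.58 kb. Their enrichments were 15.6, 10.6, 21.3 and 8.97. In contrast with the run on chromosome 7, shared sites stood close by. Within 50 kb PBS glomeruli had 15 peaks, 8 of them members, and ADR glomeruli had 6, PBS podocytes 4, day 9 podocytes 5 and day 14 podocytes 1. The site at 87786301 to 87786797 to the left of the run had a peak in all 5 lists (17.7-fold in PBS glomeruli). All 4 runs were singled out after their values were seen.

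**Figure D4:**
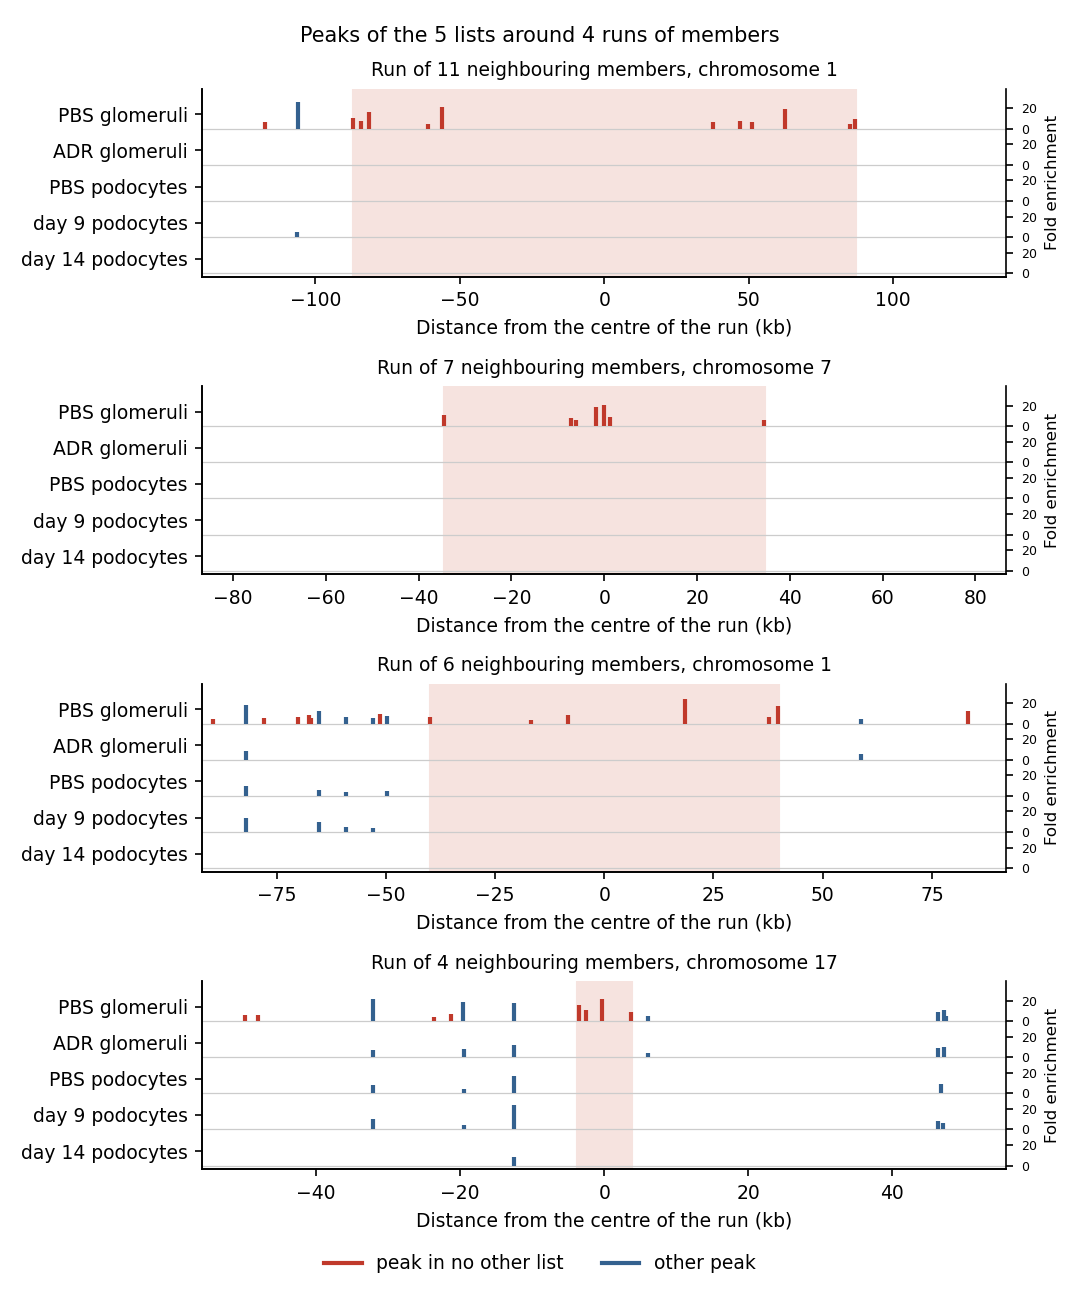
Peaks of the 5 lists (rows) around 4 runs of members, by distance from the centre of the run (horizontal axis, kb), with bar height giving fold enrichment on the scale at the right of each row. The run is shaded, members are red and all other peaks blue. By the definition of a run only PBS glomeruli have peaks within the shading, and these reach 23.8-fold enrichment.

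The members were spread over 20 chromosomes in near proportion to the PBS glomerular regions. The share of PBS glomerular regions that were members ran from 13.5% on chromosome 14 (138 of 1019, 11.6 to 15.8) to 19.9% on chromosome 8 (290 of 1460, 17.9 to 22.0), around 16.3% over all chromosomes. The intervals of those 2 alone left out the share over all chromosomes. They are the extremes of 20 chromosomes, the intervals cover counting alone, and neighbouring regions are not independent. No difference between chromosomes is read from them. On the X chromosome 101 of 583 regions (17.3%) were members. The single PBS glomerular region on the Y chromosome was no member.

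**Figure D5:**
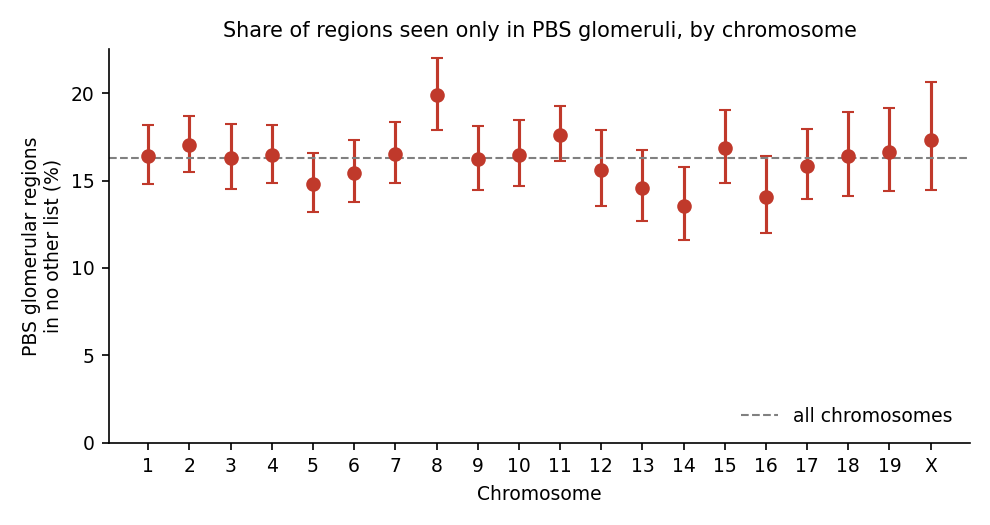
Percentage of PBS glomerular regions that lie in no other list (vertical axis) on each chromosome (horizontal axis), with 95% Wilson intervals over regions and the share over all chromosomes as a dashed line. Chromosome 8 stands highest at 19.9% and chromosome 14 lowest at 13.5%.

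Set beside the other sets of regions found in 1 list alone, the members were the next to largest, after the day 9 set. They made up 16.3% of the regions of their list, against 8.81% (8.38 to 9.25) for regions only in ADR glomeruli, 7.08% (6.76 to 7.42) for those only in PBS podocytes and 21.4% (20.9 to 21.8) for those only at day 9. At day 14, 12 regions (0.183%) were seen alone. The median percentile within the own list was 24.8 for members, 24.9 for the ADR glomerular set, 26.7 for the PBS podocyte set and 31.3 for the day 9 set. The share with a peak of another list within 10 kb was 54.2%, 55.6%, 55.9% and 56.4% in the same order, and the interval of the members (52.8 to 55.7) overlapped that of each of these 3 sets. The lists differ in length and signal, and no order of the groups is read from these shares.

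Regions in PBS glomeruli and exactly 1 further list were compared next. Of these, 2592 had their second peak in day 9 podocytes, 1247 in ADR glomeruli, 804 in PBS podocytes and 0 in day 14 podocytes. Their median enrichments in PBS glomeruli were 6.03, 5.74 and 6.03 for the first 3 sets, all above the 5.47 of the members. Regions shared by the 2 glomerular lists without a podocyte peak were fewer than the 4610 regions of vehicle glomeruli alone. These counts depend on list length, with 16634 peaks in ADR glomeruli, 29082 in PBS glomeruli and 6694 at day 14. No loss or gain of sites is read from them.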

How the data were processed

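The submitters' processing notes name Bowtie 0.12.7, MACS2 and the mm9 build. Nothing on how libraries were combined, on the control or on the cutoff is given in the sources used here. Each group has 1 narrowPeak list, in which the deposited values per peak are a fold enrichment (a ratio over background), its −log10 p, its −log10 q and an integer score that entered no result. Per the labels' protocols, chromatin was fixed with 1% formaldehyde for 5 min and sheared to 200 to 600 bp, and glomeruli of 2 kidneys went into an immunoprecipitation.

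Groups came from the sample titles. Peaks that overlapped or touched were merged, and distances run from edge to edge with coordinates 1-based in mm9. The members and lists were chosen with earlier results of these data known. Named were the 20 members of highest enrichment, the 5 of highest −log10 q, the 5 nearest to and farthest from another list, the 5 widest and the 3 windows of 1 Mb with most members, of which the text gives the leading ones. The runs were added after their values were seen. No test was run. The code for merging and for the distance to the nearest peak was tested on 10 simulated sets of 400 peaks, with 0 errors. Distances between merged regions, also those between members, came from separate code that this test did not cover. A genome and annotation of mm9 were not used here, so genes, genomic location and motifs were not assigned and no sequence is given. Values were computed in Python 3.11.15 with pandas 2.3.3, numpy 2.4.6, matplotlib 3.10.9 and scipy 1.17.1.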

Additional observations from a re-analysis of the deposited data

How the results depend on the processing

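The number of members depended on thresholds more than on how a shared site was defined. It was 1986 with a −log10 q of at least 10 in all 5 lists, 815 with that minimum in PBS glomeruli alone and 868 with every list trimmed to the 6694 peaks of the shortest by caller p-value. Of the 4610 members, 815 remained members under each of the first 2 settings and 63 after the trimming, so that the first and the last also took in regions that are no members here. Merging up to 200 or 1000 bp, a summit rule of 200 bp and an overlap of 50% of the shorter peak gave 3893 to 5121. With 1 list not counted, an alternative chosen after the data were seen, the number was 7283 without day 9 podocytes, 5878 without ADR glomeruli, 5466 without PBS podocytes and 4610 without day 14 podocytes. The share of PBS glomerular regions was 12.4% with the minimum in all lists and 5.09% with it in PBS glomeruli alone. It was 13.1% when trimmed and 15.2% with merging up to 1000 bp. The summit rule counts peaks, and 17.6% of PBS glomerular peaks met it, compared with 15.9% for the members. Median enrichment was 8.48 with the minimum in all lists, 8.50 with it in PBS glomeruli alone, 14.5 when trimmed and 5.49 with merging up to 1000 bp. The share with another list within 10 kb was 41.8% with the minimum in all lists, 51.2% with it in PBS glomeruli alone, 34.1% when trimmed, 58.8% with the summit rule, 52.5% and 46.6% with merging up to 200 and 1000 bp, and 38.4% and 87.1% at 5 and 50 kb. Some of these changes follow from the settings themselves. Merging up to 1000 bp takes out members with a peak of another list that near, and the 5 and 50 kb values only change the distance. The minimum and the trimming leave fewer peaks. Other causes of the changes were not tested.

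No paired analysis was possible because the libraries of a group share 1 list, which also kept any library from being left out. The alternatives on gene starts and WT1 motifs were not run, as they need mm9 sequence and annotation. Read depth is unknown, and sites under the calling cutoff of a list are not told from unbound ones.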

Other observations

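Of the members, 28 were more than 500 kb from any other list and 3 more than 1000 kb. Enrichment in the 28 ran from 3.44 through a median of 6.47 to 21.1, against a median of 5.47 over all members, and the highest values were those of the pair on chromosome 7. The 5 most isolated lay 951 to 1304 kb from a peak of another list and had enrichments of 4.44 to 6.61, and the farthest, on chromosome 6 at 60778840 to 60779033, was 5.38-fold enriched.

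The widest members were not the strongest. A member of 2380 bp on chromosome 7 at 52965812 to 52968191 had 6.46-fold enrichment, and one of 1331 bp on chromosome 13 at 55514420 to 55515750 had 5.76-fold, against a median width of 240 bp. The next, of 850 bp on chromosome 2 at 11940881 to 11941730, was 17.0-fold enriched. Those of 821 bp on chromosome 11 and 803 bp on chromosome 15 lay 103 and 185 bp from a podocyte peak.

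The windows with most members were not alike in signal. The window of 1 Mb at 120000001 to 121000000 on chromosome 11 had 17 members among 50 PBS glomerular regions, and that at 80000001 to 81000000 on chromosome 10 had 16 among 68, and in neither did a member reach 10-fold. The window at 135000001 to 136000000 on chromosome 1 had 15 among 47, with 4 of at least 10-fold. In the whole list 16.3% of PBS glomerular regions were members, and 4.47% of members reached 10-fold. Of 2099 windows with a PBS glomerular region, 1521 had a member, and the median in those 1521 was 2 members.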
